A study of Homo sapiens with 2 samples.

Results

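F-box proteins and their shared adaptor SKP1 were covered by 267 of the 74336 distinct sgRNAs counted in a genome-scale CRISPR/Cas9 knockout screen, and these sgRNAs target 68 of 19112 genes. The members were every sgRNA whose stored symbol starts with FBXO, FBXL or FBXW, together with those against SKP1, SKP2, CCNF and BTRC. The rule uses symbols and no measured value, but the family was picked with earlier results of these data known. SCF ubiquitin ligases are built from a cullin scaffold, a RING protein and SKP1. An F-box protein docks on SKP1 and picks the substrate that is marked for the proteasome. The part of the receptor that binds the substrate divides the family into FBXW proteins with WD40 repeats, FBXL proteins with leucine-rich repeats and FBXO proteins with other domains. BTRC belongs to the WD40 receptors, SKP2 to the leucine-rich repeat receptors and CCNF to the receptors with other domains. The family is best known for timed removal of cyclins, CDK inhibitors and transcription factors.

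Both populations came from A673, a Ewing sarcoma cell line, in a reporter derivative in which tdTomato is fused to the endogenous EWSR1::FLI1 oncogene and which carries EGFP as a control fluorophore and Cas9. The tdTomato knock-in was a single clone. Both received the Brunello lentiviral library at an MOI of 0.3, 2 μg/ml puromycin for 12 days and 3 days without it. The comparison asks which knockouts are more frequent among cells sorted for low tdTomato and high EGFP, and then expanded, than among unsorted cells. There was 1 library per population, so no value has a replicate check, and every test compares these libraries rather than the conditions. The unsorted library held 10483144 reads and the sorted library 1455322, a depth ratio of 7.20. The sorted cells also went through expansion, so effects of the gate, of growth and of the number of cells carried through cannot be told apart. The reads were not tagged with molecular identifiers and PCR copies were not separated, so all intervals and bounds cover counting error only.

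The sgRNAs that carry the main results are shown first, 5′ to 3′, with their read numbers. Capitals mark the 10 bases next to the PAM, where pairing matters most for Cas9. The file gives no coordinates or strand and no genome was used, so cut positions are not given. FBXW2 and FBXO3 are shown whole because 3 of their 4 sgRNAs were enriched, followed by the sgRNAs of FBXO45, FBXO5, FBXO42, FBXO4 and FBXL20 with the smallest adjusted p of each gene, by all of FBXL5, which split into an enriched and a depleted pair, by the most depleted sgRNA of the family, from FBXO27, and by SKP1 and FBXL14, of which no read was found in the sorted library.
FBXW2, 46 unsorted and 59 sorted reads: atatgcactaGTATTTAGCG
FBXW2, 76 unsorted and 48 sorted reads: tcacctgattAGTCTGAGTG
FBXW2, 105 unsorted and 60 sorted reads: cagcatgtgaGTAAAGTCTG
FBXW2, 213 unsorted and 0 sorted reads: actgtgtccaATTAATGACG
FBXO3, 33 unsorted and 53 sorted reads: tttgagtcagTACATAGCAG
FBXO3, 64 unsorted and 33 sorted reads: ttcagagataAAACCATCCG
FBXO3, 109 unsorted and 40 sorted reads: tgttcataccGAATTCACAA
FBXO3, 52 unsorted and 0 sorted reads: tatcaagtcaTGATCCGCTG
FBXO45, 92 unsorted and 214 sorted reads: gtaccagtgcTTGCACACCA
FBXO5, 33 unsorted and 70 sorted reads: tttcaagttgTACAATCCTA
FBXO42, 65 unsorted and 130 sorted reads: tgtttaggtcAAGTCTCCAG
FBXO4, 42 unsorted and 83 sorted reads: cccaactgacACAGATCATG
FBXL20, 102 unsorted and 147 sorted reads: aatatttcaaAACGATGTGG
FBXL5, 117 unsorted and 89 sorted reads: gcaaaattacTTCAACTGCG
FBXL5, 78 unsorted and 40 sorted reads: gaacgttatgAATTAAGCCA
FBXL5, 516 unsorted and 22 sorted reads: tgagtaggtgACTGGTATAG
FBXL5, 128 unsorted and 5 sorted reads: gaagtgtcagAACACTCCAC
FBXO27, 644 unsorted and 0 sorted reads: agtctcccgcCCGTAACGCC
SKP1, 168 unsorted and 0 sorted reads: tgttgttgtaGGTCATTCAG
SKP1, 84 unsorted and 0 sorted reads: catcatcttcAGGAGGAGGA
SKP1, 13 unsorted and 0 sorted reads: actattaagaCCATGTTGGA
FBXL14, 267 unsorted and 0 sorted reads: ccgcctaccaCAAGTCGGTG
FBXL14, 220 unsorted and 0 sorted reads: cgatctcctgCACAAACGCG
FBXL14, 90 unsorted and 0 sorted reads: ctctaaagcaCATCTCCCGA

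Across the family, enrichment in the tdTomato-low EGFP-high cells was about as frequent as in the library at large. For each sgRNA the odds of its reads in the sorted library were divided by those in the unsorted library. Enrichment required this odds ratio to be 2 or more, depletion 0.5 or less, and both an adjusted p under 0.05 (two-sided Fisher's exact test, p-values adjusted by Benjamini-Hochberg across the 74336 sgRNAs). By this rule 47 of the 267 sgRNAs were enriched (17.6%, Wilson 95% interval 13.5 to 22.6%, with sgRNAs taken as independent), beside 20.8% of all sgRNAs. Depletion was called for 161 (60.3%), beside 51.7% of all sgRNAs, and 59 met neither rule. Of the depleted sgRNAs, 139 had 0 sorted reads and 22 had some. In all, 153 sgRNAs of the family (57.3%) had 0 sorted reads, beside 57.6% of all sgRNAs. The other 14 at 0 were not called and had 1 to 30 unsorted reads. The median log2 ratio of sorted to unsorted library share was -3.53 for the family and -2.82 for all sgRNAs. The exact binomial 95% interval of the family median ran from -3.87 to -2.64, with sgRNAs taken as independent, and includes -2.82. Among the 114 sgRNAs with sorted reads the median was 0.65, where it was 1.01 for all such sgRNAs.

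Counted by gene, 13 of 68 (19.1%) had at least 2 enriched sgRNAs, beside 18.8% of all genes. FBXW2 and FBXO3 had 3, which 2.84% of all genes had or exceeded, and none of the 68 had 4, a count that 0.157% of all genes reached. The genes with 2 were FBXW9 and FBXW12 among the WD40 receptors, FBXL5, FBXL6 and FBXL20 among the leucine-rich repeat receptors, and FBXO4, FBXO5, FBXO9, FBXO21, FBXO34 and FBXO45. At the other end, 10 genes (14.7%) had every sgRNA at 0 sorted reads, beside 14.6% of all genes. In 4 of these 10, FBXL4, FBXL14, FBXL18 and FBXO25, each sgRNA had at least 30 unsorted reads, and 6.07% of all genes met that condition. Each of these gene counts lay near the share in the whole library. At least 1 enriched sgRNA was found for fewer genes, 32 of 68, beside 59.3% of all genes, a difference not tested.

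Among the 10 WD40 receptors, FBXW2 had the highest gene median of the family. FBXW2 is known as the receptor of the placental transcription factor GCM1. Its enriched sgRNAs had odds ratios of 9.24 (exact 95% interval 6.18 to 13.9), 4.55 (3.10 to 6.62) and 4.12 (2.95 to 5.71). The smallest adjusted p of the 3 was 8.79e-26 (Fisher's exact test). The remaining sgRNA went the opposite way, at least 9.86-fold lower after sorting. Such a bound sets the 0 sorted reads to a floor of 3 and leaves out the counting error of the unsorted reads. Each interval is for the ratio of library shares, which for such rare sgRNAs is nearly the odds ratio. The gene median of the log2 ratio was 2.12, rank 218 of 19112 genes. FBXW9 had 2 enriched sgRNAs, with 105 unsorted and 85 sorted reads and with 23 and 17, at odds ratios of 5.83 and 5.32. The rest lay at 1.51 and 0.258, the last called depleted. FBXW12 had 2 at 4.09 and 2.53.

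The best known WD40 receptors had no enriched sgRNA. BTRC and FBXW11 are close paralogs that recognise phosphorylated β-catenin and IκB and take part in the processing of GLI proteins. BTRC had 272, 201, 125 and 84 unsorted reads, and 57, 0, 0 and 0 sorted reads in the same order. The sgRNA with sorted reads had an odds ratio of 1.51 (1.11 to 2.01), and the other 3 were lower, with bounds from at least 3.89-fold to at least 9.30-fold. FBXW11 had 0 sorted reads for all 4 sgRNAs. Its unsorted counts were low, at 56, 41, 34 and 1, and the largest bound was at least 2.59-fold lower. FBXW7, the receptor of cyclin E, MYC and NOTCH, had 381, 107, 49 and 20 unsorted reads. Of these 1 sgRNA had sorted reads, 32, at an odds ratio of 0.605 (0.408 to 0.869), and of the other 3 at 0 only those with 107 and 49 unsorted reads were called depleted. All sgRNAs of FBXW4 and FBXW5 were also at 0 sorted reads, from 11 to 169 and from 19 to 77 unsorted reads. The WD40 receptors together had 8 of 40 sgRNAs enriched (20.0%) and 25 at 0 sorted reads (62.5%), beside 20.8% and 57.6% of all sgRNAs.

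The 19 leucine-rich repeat receptors had 14 of 73 sgRNAs enriched (19.2%) and 44 at 0 sorted reads (60.3%), also beside 20.8% and 57.6%. FBXL20, a synaptic receptor known to act on RIM1, had the strongest pair. These sgRNAs had 102 unsorted and 147 sorted reads and 77 unsorted and 80 sorted reads. Their odds ratios were 10.4 (8.01 to 13.5, adjusted p = 1.55e-66, Fisher's exact test) and 7.48 (5.40 to 10.4). The rest were lower by at least 9.86-fold and at least 3.01-fold. FBXL19, a CXXC domain protein that binds CpG islands, held the sgRNA with the most sorted reads of the family, 232 against 307 unsorted, at an odds ratio of 5.44 (4.57 to 6.48). Of its other sgRNAs, 1 was at 0.971 and the rest were at 0 sorted reads. FBXL6 had 2 enriched sgRNAs at 4.20 and 3.86 and 2 at 0 sorted reads.

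FBXL5, the iron sensor that removes IRP2, was split without any sgRNA at 0. Its sgRNAs had 117, 78, 516 and 128 unsorted reads, and 89, 40, 22 and 5 sorted reads in the same order. The first pair was enriched at odds ratios of 5.48 (4.11 to 7.28) and 3.69 (2.46 to 5.48), and the other pair was depleted at 0.307 (0.191 to 0.470) and 0.281 (0.0898 to 0.674). The intervals of the pairs did not overlap, which the opposite calls already imply. The depleted sgRNA with 516 unsorted reads was the most abundant of the gene.

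FBXL21 was the only member gene whose accession was not matched to RefSeq. It had 1 enriched sgRNA at 4.92 (3.42 to 7.05), a pair at 1.31 and 1.07, and 1 at 0 sorted reads. FBXL17, which is known to remove SUFU, a restraint on Hedgehog signaling, had 1 enriched sgRNA at 5.11 (3.56 to 7.28). Of its other sgRNAs, 1 was at 1.26 (0.753 to 2.02) and the rest were lower by at least 6.29-fold and at least 2.27-fold. SKP2, the receptor of the CDK inhibitor p27, had 96, 179, 102 and 41 unsorted reads, and 49, 33, 0 and 0 sorted reads in the same order. Only the first was enriched, at 3.68 (2.55 to 5.24).

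Each of the leucine-rich repeat genes with no sorted read was well covered before sorting. FBXL14, a receptor of the transcription factor Snail, had 90 to 267 unsorted reads over its 3 listed sgRNAs and was lower, with bounds from at least 4.16-fold to at least 12.4-fold. FBXL4, a mitochondrial protein that restrains mitophagy, had 70 to 174 unsorted reads over 4 sgRNAs, with bounds from at least 3.24-fold to at least 8.05-fold lower. FBXL18, a receptor known to act on FBXL7, had 54 to 133 unsorted reads, with bounds from at least 2.50-fold to at least 6.15-fold. All sgRNAs of these 3 genes were called depleted. FBXO25 had 106, 87, 48 and 30 unsorted reads and 0 sorted reads, and its sgRNA with 30 was not called (adjusted p = 0.0554, Fisher's exact test).

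The 38 receptors with other domains had 25 of 151 sgRNAs enriched (16.6%, Wilson 95% interval 11.5 to 23.3%) and 81 at 0 sorted reads (53.6%), where all sgRNAs gave 20.8% and 57.6%. FBXO3, which targets the F-box protein FBXL2, had enriched sgRNAs at odds ratios of 11.6 (7.35 to 18.4), 3.71 (2.36 to 5.74) and 2.64 (1.79 to 3.83). The smallest adjusted p was 6.60e-26 (Fisher's exact test), and the fourth sgRNA was at least 2.41-fold lower. Its median log2 ratio of 1.66 ranked 489 of all genes. FBXL2 itself had 0 enriched sgRNAs, its highest at an odds ratio of 1.98, just under the threshold.

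When only sgRNAs with 30 or more unsorted reads were ranked, the first 5 of the family all targeted FBXO genes. The receptors with other domains held 151 of the 267 sgRNAs. FBXO45 works with the ubiquitin ligase MYCBP2 rather than a cullin, and its sgRNA with 92 unsorted and 214 sorted reads had an odds ratio of 16.8 (13.1 to 21.6). With an adjusted p of 3.78e-118 (Fisher's exact test) it ranked 27 of the 15486 enriched sgRNAs of the library, and by odds ratio 163 of 63983. The other FBXO45 sgRNAs were at 3.60 (2.65 to 4.85), at least 6.52-fold lower and at least 13.8-fold lower. FBXO5 (EMI1), which inhibits the anaphase-promoting complex, had a pair at 15.3 (9.96 to 23.9) and 6.20 (4.34 to 8.83), and a pair lower by at least 5.14-fold and at least 2.96-fold. FBXO42, a Kelch-repeat protein known to bind p53, had its enriched sgRNA at 14.4 (10.6 to 19.7). Another FBXO42 sgRNA was among the most depleted, with 346 unsorted and 0 sorted reads, at least 16.0-fold lower. FBXO4, known to act on the telomere protein TRF1, had sgRNAs at 19.1 (10.7 to 35.5) from 17 unsorted reads and at 14.2 (9.71 to 21.2) from 42. Its other sgRNAs, with 59 and 39 unsorted reads, had 0 sorted reads.

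The remaining enriched FBXO genes showed the same mixture. FBXO9 had a pair at 7.64 and 3.44 and a pair at 0 sorted reads. FBXO34 had a pair at 3.55 and 2.37 and a pair at 0. FBXO21 had a pair at 2.90 and 2.80, 1 sgRNA at 0.842 and 1 at 0 sorted reads. FBXO47 and FBXO48 had 1 enriched sgRNA each, at 19.5 (11.5 to 34.3) and 18.6 (10.7 to 33.4), from 20 and 19 unsorted reads. Over the family, enriched odds ratios ran from 2.02 to 19.5 with a median of 4.55, beside a median of 4.12 for all enriched sgRNAs with unsorted reads. An odds ratio of at least 10 was reached by 9 of the 47 (19.1%), beside 15.3% of all enriched sgRNAs.

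FBXO2, FBXO6, FBXO17, FBXO27 and FBXO44 form a subfamily by sequence, of which FBXO2 and FBXO6 are known to bind N-glycans of misfolded glycoproteins. They had 1 of 19 sgRNAs enriched (5.26%, Wilson 95% interval 0.935 to 24.6%, which includes the 20.8% of all sgRNAs) and 15 depleted (78.9%), beside 51.7% of all sgRNAs. They were abundant before sorting, with a median of 219 unsorted reads and none of the 19 under 30. Of all sgRNAs with at least 30 unsorted reads, 60.5% were depleted when the test was adjusted over those. At 0 sorted reads were 10 of the 19 (52.6%), beside 57.6% of all sgRNAs. The enriched sgRNA was from FBXO2, 110 unsorted and 33 sorted reads, at an odds ratio of 2.16 (1.42 to 3.21). The next FBXO2 sgRNA had 303 unsorted reads and 1 sorted read, at 0.0238 (0.000600 to 0.133). FBXO27 had 644, 387, 363 and 297 unsorted reads, and 0, 21, 50 and 0 sorted reads in the same order. Its sgRNA with 644 was the most depleted of the family, at least 29.8-fold lower. FBXO17 had 3 listed sgRNAs with 284, 139 and 74 unsorted and 0, 7 and 2 sorted reads, all called depleted. FBXO6 had 197, 83, 79 and 37 unsorted reads, of which only the sgRNA with 79 kept any sorted reads, 7, at 0.638 (0.249 to 1.38). FBXO44 had 1 sgRNA at 1.87 (1.38 to 2.52), 1 at 0.331 (0.0883 to 0.879), and 2 at 0 sorted reads, from 346 and 231 unsorted reads.

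The other sgRNAs with the smallest odds ratios, ranked by the upper limit of the interval, were from FBXO24 and FBXO43. FBXO24 had 392 unsorted and 0 sorted reads for this sgRNA, at least 18.1-fold lower. Yet another FBXO24 sgRNA, with 35 unsorted and 47 sorted reads, had an odds ratio of 9.67 (6.11 to 15.4). FBXO43 (EMI2), a meiotic inhibitor of the anaphase-promoting complex, had an sgRNA at least 14.3-fold lower and 1 enriched at 2.89 (2.31 to 3.58). FBXO38 held the most abundant sgRNA of the family before sorting, 665 reads, of which 4 were left, at 0.0433 (0.0118 to 0.111). Its other sgRNAs, from 252 to 594 unsorted reads, lay between 0.861 and 1.32.

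The cell cycle receptors are the best studied F-box proteins. Their list of SKP2, FBXW7, CCNF, FBXO5, FBXO31, FBXO4, BTRC and FBXW11 had 5 of 32 sgRNAs enriched (15.6%), of which 2 each were from FBXO5 and FBXO4 and 1 from SKP2, and 20 depleted (62.5%), beside 20.8% and 51.7% of all sgRNAs. CCNF, cyclin F, which marks the ribonucleotide reductase subunit RRM2, had 471, 235, 142 and 90 unsorted reads and 93, 2, 0 and 0 sorted reads in the same order. The CCNF sgRNA with 93 sorted reads was at 1.42 (1.13 to 1.78), and the sgRNA with 2 at 0.0613 (0.00738 to 0.224). FBXO31, a receptor of cyclin D1, had 141, 93, 60 and 14 unsorted reads and 0 sorted reads throughout. FBXO11, the receptor of BCL6, had 252 unsorted and 34 sorted reads for 1 sgRNA, at 0.972 (0.658 to 1.39), and the other 3 were at least 6.52-fold to at least 9.53-fold lower. FBXO7, a Parkinson's disease gene that also binds the proteasome regulator PI31, had 1 sgRNA with sorted reads, 4 against 92 unsorted, at 0.313 (0.0836 to 0.829), and all 4 of its sgRNAs were depleted.

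SKP1, the adaptor on which the SCF receptors depend, had 3 listed sgRNAs, all with 0 sorted reads. The sgRNAs with 168 and 84 unsorted reads were called depleted, lower by at least 7.77-fold and at least 3.89-fold. The sgRNA with 13 unsorted reads could not be judged (exact 95% interval of the ratio 0 to 2.36), since a bound against 3 sorted reads needs more than 21.6 unsorted reads.

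An enriched sgRNA and an sgRNA at 0 sorted reads were found together in 30 of the 68 genes, beside 55.2% of all genes. Of the 32 genes with an enriched sgRNA these were 93.8%, where 93.1% of all such genes did. The exceptions were FBXL5 and FBXW9. With FBXO32 and FBXO38 they were the 4 genes (of 68) that had no sgRNA at 0, beside 4.68% of all genes. FBXO32 (atrogin-1), a muscle atrophy receptor, had 235, 241, 162 and 278 unsorted reads and 62, 51, 7 and 1 sorted reads in the same order, and 0 of its sgRNAs were enriched. At least 3 sgRNAs were depleted for 30 genes (44.1%), beside 32.3% of all genes.

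The shares of enriched and lost sgRNAs differed between classes of abundance before sorting, and these differences were not tested. Unsorted reads ran from 1 to 665 in the family with a median of 108, beside 103 for all sgRNAs. Only 19 family sgRNAs (7.12%) had under 30 unsorted reads, beside 13.9% of all, and none of the 12 of them at 0 sorted reads was called depleted. When the test was adjusted over sgRNAs with at least 30, the family had 65.7% depleted and 16.9% enriched, beside 60.5% and 21.4% of all sgRNAs. Under 30 unsorted reads, 5 of 19 were enriched (26.3%, all sgRNAs 17.5%). From 30 to 99 unsorted reads, 24 of 101 were enriched (23.8%, all sgRNAs 26.7%), from 100 to 299 it was 14 of 112 (12.5%, all 20.7%), and from 300 up 4 of 35 (11.4%, all 6.77%). In that last class 5 of 35 had 0 sorted reads (14.3%), beside 35.6% of all sgRNAs.

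By base composition, 18 of 73 family sgRNAs under 45% GC were enriched (24.7%, Wilson 95% interval 16.2 to 35.6%). From 45% to below 60% it was 24 of 134 (17.9%, 12.3 to 25.3%), and at 60% or more 5 of 60 (8.33%, 3.61 to 18.1%). These intervals take sgRNAs as independent. All sgRNAs of the library gave 21.2%, 20.9% and 20.5% in the same classes. A G at the base next to the PAM was found in 149 of 267, of which 19.5% were enriched, against 15.3% of the other 118. For all sgRNAs these shares were 20.7% and 21.0%. The classes were not tested against each other, since sgRNAs share genes.

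FBXW10 was poorly measured by a pair of its sgRNAs. Reads were assigned only where a single library entry lay within 3 mismatches, and a pair of FBXW10 sgRNAs each differ at 1 base from an sgRNA against CDRT1, which RefSeq names FBXW10B. They are shown with that base in capitals and with positions counted from 1 at the 5′ end.
FBXW10, 6 unsorted and 1 sorted reads: agaaaatgaacacttGcttg
CDRT1, 1 unsorted and 0 sorted reads: agaaaatgaacacttCcttg
FBXW10, 4 unsorted and 0 sorted reads: gaagtggaagCtgagaacga
CDRT1, 1 unsorted and 0 sorted reads: gaagtggaagTtgagaacga
The changes are G16C and C11T. Across the library, 2072 sgRNAs had another listed sgRNA within 3 mismatches and a median of 5 unsorted reads, beside a median of 107 for the other 72264. These FBXW10 sgRNAs were the only members with such a neighbour. The other FBXW10 sgRNAs had 226 unsorted and 0 sorted reads, at least 10.5-fold lower, and 157 and 9 reads, an odds ratio of 0.413 (0.185 to 0.804). Both were called depleted.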

How the data were processed

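The deposited file holds whole-number read counts per sgRNA and the library totals, without normalization. By the study's methods, the authors extracted the 20 bases after the constant vector sequence from MiSeq reads and mapped them to the Brunello library with Bowtie 1.2.2 (up to 3 mismatches, reads with more than 1 match dropped). The guide cassettes were amplified by nested PCR. The authors' odds ratios and p-values in the file were not used. A genome build is not given in the sources used here, and coordinates are left out.

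Symbols were read from the entry that also stores the sgRNA sequence, 3 repeated entries were dropped, and 67 of 68 member genes were matched by accession to RefSeq (GRCh38.p14, names only). Fisher's exact test was two-sided on counts as deposited. Odds ratios are those of the counts, log2 ratios use a pseudocount of 0.5, and intervals are exact (Clopper-Pearson) 95% intervals of the sorted among all reads of an sgRNA, rescaled to library shares. For 0 reads a floor of 3 was used. The members and lists were chosen with earlier results of these data known. Named genes are those with at least 3 enriched sgRNAs, those with every sgRNA at 0 sorted and at least 30 unsorted reads, those of the 5 largest and 5 smallest odds ratios, and 17 fixed genes. Others were named after their values were seen. A gene of this rule is not reported here. The test was checked on simulated counts with Poisson counting error only. The sort, the expansion and PCR were not simulated, so the check says nothing about the spread they add. Alternatives were other odds ratio thresholds, Bonferroni adjustment, at least 30 unsorted reads, scaling on olfactory receptor sgRNAs and a pseudocount of 5. Python 3.11.15, numpy 2.4.6, pandas 2.3.3 and scipy 1.17.1 were used.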

Additional observations from a re-analysis of the deposited data

How the results depend on the processing

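Of 19 alternative values of the family counts and median, 14 stayed within 1.5 times the reported count, or within the exact binomial interval of the median. An odds ratio of at least 4 left 27 enriched sgRNAs (the rule called 11.0% of all sgRNAs) and 5 genes with at least 2 (6.03% of all genes). Bonferroni adjustment left 67 depleted sgRNAs (23.5% of all). The median log2 ratio was -0.66 with a pseudocount of 5 (all sgRNAs -0.32), since most sgRNAs have 0 sorted reads, and 0.65 over sgRNAs with sorted reads (all 1.01), which leaves out every sgRNA at 0. For the 28 named genes, 128 of 140 counts of enriched sgRNAs stayed within 1.5 times, 9 were lower and 3 higher. Many of these genes, such as SKP1, BTRC and FBXL14, started at 0 enriched sgRNAs. A count that stayed at 0 was scored as unchanged, and a stricter rule cannot alter it. FBXW2 kept 3 enriched sgRNAs under all 5 alternatives. FBXO3 had 2 under Bonferroni adjustment, which was scored as within 1.5 times, and 1 at an odds ratio of at least 4. With the sorted library 7.20 times shallower, an sgRNA at 0 sorted reads gives a bound only above 21.6 unsorted reads. No paired analysis was possible because there is 1 library per population.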

Other observations

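The other core parts of the SCF ligase and its partners were listed as 26 genes. They cover the cullin scaffold, the RING protein, E2 enzymes, the NEDD8 cycle and the COP9 signalosome. CAND1, GLMN, ARIH1 and CKS1B were also on the list. It had 23 of 101 sgRNAs enriched (22.8%), beside 20.8% of all sgRNAs. At least 2 were enriched for 6 of 26 genes (23.1%, all genes 18.8%). COPS7B, a COP9 subunit, had 3 of 4, with a gene median log2 ratio of 1.45. DCUN1D1, which helps attach NEDD8 to cullins, had 2 of 4 and a median of 2.19. GLMN, CDC34, UBE2R2 and UBE2G1 had 2 each. CUL1, the scaffold, had 1 enriched sgRNA, 1 at 0 sorted reads and a median of -1.24. Every sgRNA was at 0 sorted reads for 8 of the 26 genes (30.8%, all genes 14.6%), namely RBX1, NEDD8, UBA3, UBE2D3, ARIH1, GPS1, COPS2 and COPS5. In 2 of the 8, UBA3 and UBE2D3, every sgRNA had at least 30 unsorted reads. That is 7.69% of the 26 genes, beside 6.07% of all genes. The list had 24 of 101 sgRNAs under 30 unsorted reads and a median of 85, and the part of this abundance in the losses was not tested.

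F-box proteins listed under other symbols (KDM2A, KDM2B, NCCRP1, ECT2L and LMO7) had 1 of 20 sgRNAs enriched (5.00%, Wilson 95% interval 0.888 to 23.6%), from KDM2B, and 17 at 0 sorted reads (85.0%), beside 20.8% and 57.6% of all sgRNAs. Their median was 54 unsorted reads, beside 103, and 5 of the 20 had under 30. CDRT1, which RefSeq names FBXW10B, was not on this list. FBH1 appears in the library as FBXO18, a DNA helicase, with sgRNAs at odds ratios of 1.53 and 1.11 and 2 at 0 sorted reads.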
